A study of Mus musculus with 238 samples.

Results

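Gene expression in the corpus callosum of dietary restricted and freely fed mice was compared in 7 libraries, chosen as the corpus callosum columns of the diet experiment and drawn from 238 libraries in the whole count table. The mice were females of the C57BL/6JN strain, 19 months old, with no further allele or agent in the labels. Mice 61, 62, 65 and 67 were dietary restricted, a group the labels call aDR, and mice 63, 66 and 69 were fed ad libitum (AL). Each library was made from 1 mouse by bulk mRNA sequencing of homogenised tissue, so p-values measure the spread between mice. The labels give neither the amount of food, nor the length of the restriction, nor the hour of sampling. In bulk RNA, fewer cells of a type and less RNA per cell cannot be told apart.

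The corpus callosum is the large white matter tract that joins the cerebral hemispheres. Its axons are wrapped in myelin by oligodendrocytes, and astrocytes, microglia and capillaries lie between them. Food restriction is known to raise circulating glucocorticoids, adrenal steroids whose receptor enters the nucleus and switches on a set of target genes in most cell types. Feeding time also sets the circadian clock, a loop in which the proteins of Arntl and Clock switch on their own repressors.

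The tissue label was checked against markers. Summed over 10 oligodendrocyte markers, the 7 libraries held 21190 to 34610 CPM (counts scaled to a common library total), against 3284 to 6514 in the motor cortex libraries of the same experiment and 23870 to 30920 in the medulla. Caudate putamen held 10600 to 27310 CPM and pons 6939 to 37200. This level therefore does not set corpus callosum apart from medulla, caudate putamen or pons. The libraries differed in what else they held. Transthyretin (Ttr), the main secreted product of choroid plexus epithelium, stood at 10620 CPM in aDR 61, 5602 in aDR 62, 4076 in aDR 65 and 0.582 in aDR 67. In the freely fed mice it stood at 34.2 CPM in AL 63, 10500 in AL 66 and 1066 in AL 69. So 3 of the 4 restricted mice and 1 of the 3 freely fed mice carried more Ttr than the median of the 9 choroid plexus libraries, 3795 CPM, and the diets overlapped over the whole range. Those 9 libraries ran from 609 to 8167 CPM of Ttr and held other tissue too. Their medians were 4120 CPM for cortical excitatory neuron markers and 10350 CPM for oligodendrocyte markers, so they do not give the level of pure plexus. The 14 choroid plexus markers moved together. Their median level, as a percent of that in the choroid plexus libraries, was 245% in aDR 61, 147% in aDR 62, 99.3% in aDR 65 and 0.763% in aDR 67, and 2.54% in AL 63, 271% in AL 66 and 36.7% in AL 69. Aqp1 and Cldn2, a water channel and a tight junction protein of this epithelium, had no count in AL 63, and Cldn2 had none in aDR 67 either. No marker of any of the 10 cell types checked was at 0 in all 7 libraries. Of the 14 choroid plexus markers, 0 had an unadjusted p under 0.05 between the diets in edgeR's quasi-likelihood test, with a median log2 change of 0.23. Among all genes tested, 1.33% were higher and 1.29% lower at that level.

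Striatal neuron markers, from the grey matter below the tract, summed to 5893 CPM in aDR 61, 6799 in aDR 62, 4150 in aDR 65 and 8162 in aDR 67, and to 5666 in AL 63, 5837 in AL 66 and 10050 in AL 69. Their median was 5893 CPM, beside 11110 in caudate putamen and 231.7 in motor cortex libraries, so all 7 held striatal RNA, with aDR 65 lowest and AL 69 highest. The caudate putamen libraries ran from 8405 to 18240 CPM. AL 69 lay within the caudate putamen range for striatal markers and for oligodendrocyte markers (21190 CPM). Markers of cortical excitatory neurons summed to 2152 to 3489 CPM, below the 5308 to 6236 of motor cortex. Library totals ran from 3.60 M (mega) counts in AL 63 to 18.06 M in AL 69, with 14996 to 17101 genes detected and 2.02 to 2.45% of counts on mitochondrial genes. In each group of the plot of marker sums the diets overlapped, and so did the sums of the groups not plotted. Overlap does not show that the mixture of cells was the same. All 5 blood markers had a positive log2 change (median 1.85). Of 10 striatal neuron markers 9 had a negative one (median -0.25), and of 10 cortical excitatory neuron markers 9 had a positive one (median 0.11).

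**Figure D1:**
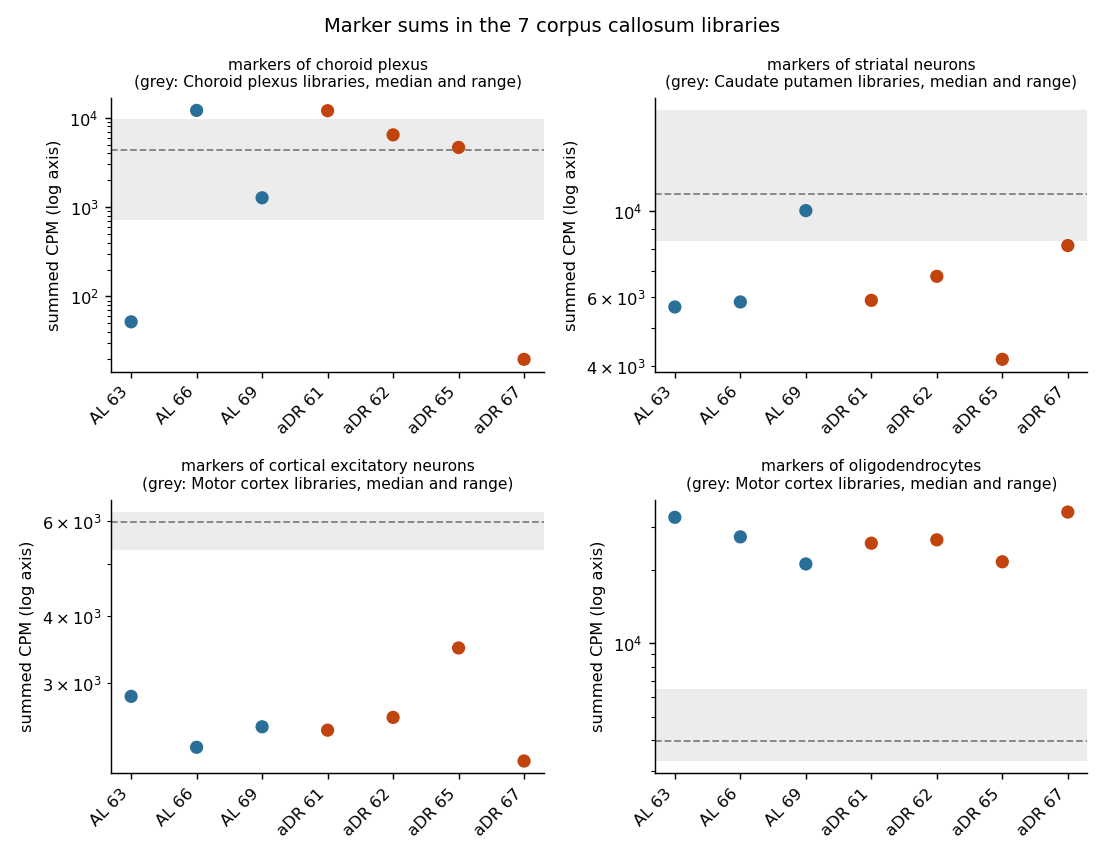
Summed CPM (log axes) of the markers of 4 cell types in each corpus callosum library, AL in blue and aDR in orange, with the median (dashed line) and range (grey band) of a tissue of the same experiment. Choroid plexus markers run from 19.8 to 12090 CPM and overlap between the diets, while oligodendrocyte markers lie above the motor cortex band in all 7 libraries.

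Of 13934 genes tested, 3 rose in the restricted mice and 0 fell at an adjusted p under 0.05 (edgeR's quasi-likelihood test with Benjamini-Hochberg adjustment), which is 0.0215% of the genes. The 3 were Tsc22d3, Ciart and Zbtb16. All 3 had an adjusted p of 0.0497, just inside the threshold. At an unadjusted p under 0.05 there were 186 higher genes (1.33%) and 180 lower genes (1.29%). Every restricted mouse lay above every freely fed mouse for 357 genes (2.56%) and below for 279 genes (2%). DESeq2 on the same counts called 10 genes, 8 higher and 2 lower: the same 3 with Cirbp, Plin4, Etnppl, Rbm3 and Sgk1 higher, and Kdr and Fgf3 lower. Leaving out any 1 of the 7 libraries left 0 calls, and so did leaving out aDR 61 with AL 66, the libraries with the most Ttr of each diet, or aDR 67 with AL 63, those with the least.

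Tsc22d3 encodes the glucocorticoid-induced leucine zipper protein, which restrains inflammatory transcription factors, and lies at chrX:140539528-140600522 (GRCm38.p6). It stood at 156.6 CPM in aDR 61, 143.0 in aDR 62, 152.5 in aDR 65 and 149.8 in aDR 67, against 90.9 in AL 63, 84.4 in AL 66 and 77.9 in AL 69. The restricted mice lay in a narrow band far above the freely fed mice, with no overlap. Its mean was 150.5 ± 5.73 CPM (SD, n = 4) in aDR and 84.4 ± 6.53 (SD, n = 3) in AL. The log2 change was 0.84 (SE 0.08, adjusted p = 0.0497 in edgeR). In the pair of libraries with almost no choroid plexus RNA, aDR 67 and AL 63, its levels were 149.8 and 90.9 CPM, and in the pair with the most, aDR 61 and AL 66, they were 156.6 and 84.4. Each of these pairs holds 1 mouse per diet, so the part of choroid plexus RNA in these values was not tested by them. Leaving out 1 library at a time kept the log2 change of Tsc22d3 between 0.76 and 0.89, with adjusted p from 0.0725 to 0.376 in edgeR's test.

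Zbtb16 encodes PLZF, a zinc finger transcriptional repressor that glucocorticoids induce in many tissues (chr9:48651797-48836225). Its levels were 39.5, 35.8, 32.6 and 44.5 CPM in aDR 61, 62, 65 and 67, and 16.7, 17.0 and 14.1 CPM in AL 63, 66 and 69. The lowest restricted mouse was far above the highest freely fed mouse. The means were 38.1 ± 5.12 CPM (SD, n = 4) and 15.9 ± 1.58 (SD, n = 3), and the log2 change was 1.27 (SE 0.14; edgeR adjusted p = 0.0497). Without 1 library at a time it was 1.16 to 1.34, with adjusted p from 0.0725 to 0.602. The gene model Gm32280 overlaps Zbtb16 and the counts carry no strand, so reads from the pair cannot be told apart.

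Ciart encodes Chrono, a repressor of the Arntl and Clock proteins (chr3:95878500-95882257). It stood at 67.2 CPM in aDR 61, 58.7 in aDR 62, 61.9 in aDR 65 and 52.5 in aDR 67, and at 24.8 in AL 63, 24.0 in AL 66 and 30.5 in AL 69. The diets did not overlap, with aDR 67 the lowest restricted mouse and AL 69 the highest freely fed one. The means were 60.1 ± 6.15 CPM (SD, n = 4) and 26.4 ± 3.57 (SD, n = 3), and the log2 change was 1.17 (SE 0.12; edgeR adjusted p = 0.0497). Without 1 library at a time it was 1.07 to 1.28, with adjusted p from 0.0725 to 0.400. The gene model C920021L13Rik overlaps it, with the same limit on strand. Its promoter is shown because it carries the letters that the Arntl and Clock proteins are known to bind, the E-box CACGTG, in capitals below. The stretch runs 5′ to 3′ on the minus strand of chr3:95882258-95882478 (RefSeq, GRCm38.p6), from 250 to 30 bases before the start site of its promoter entry. That start site lies inside the gene span given above, and the stretch ends at the base next to that span.
Ciart promoter: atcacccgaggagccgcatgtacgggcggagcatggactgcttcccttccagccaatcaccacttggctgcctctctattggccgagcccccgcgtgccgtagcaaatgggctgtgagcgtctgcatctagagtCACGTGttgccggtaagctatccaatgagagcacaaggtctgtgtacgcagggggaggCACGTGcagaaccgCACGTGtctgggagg
The E-boxes began at -116, -58 and -44 from the start site of the promoter entry. Searched on both strands of windows from 250 bases before to 50 after each start, 7.15% of 32851 mouse promoters held at least 1 E-box, and 29 of them (0.0883%) held 3 or more. None of the 3 Tsc22d3 promoter windows held an E-box, the D-box TTATGNAA (3.38% of promoters), the cyclic AMP element TGACGTCA (1.79%) or the 13-letter glucocorticoid element (0.475%). Of 24 promoters of clock genes, 6 held an E-box, those of Bhlhe41, Ciart, Cry1, Per1 and Tef. Of 32 promoters of glucocorticoid targets, 5 held one (Dusp1, Fkbp5, Klf15, Per1 and Sgk1), and 3 held the glucocorticoid element (Map3k6, Mt1 and Sgk1). A match of letters is a description of these windows only.

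**Figure D2:**
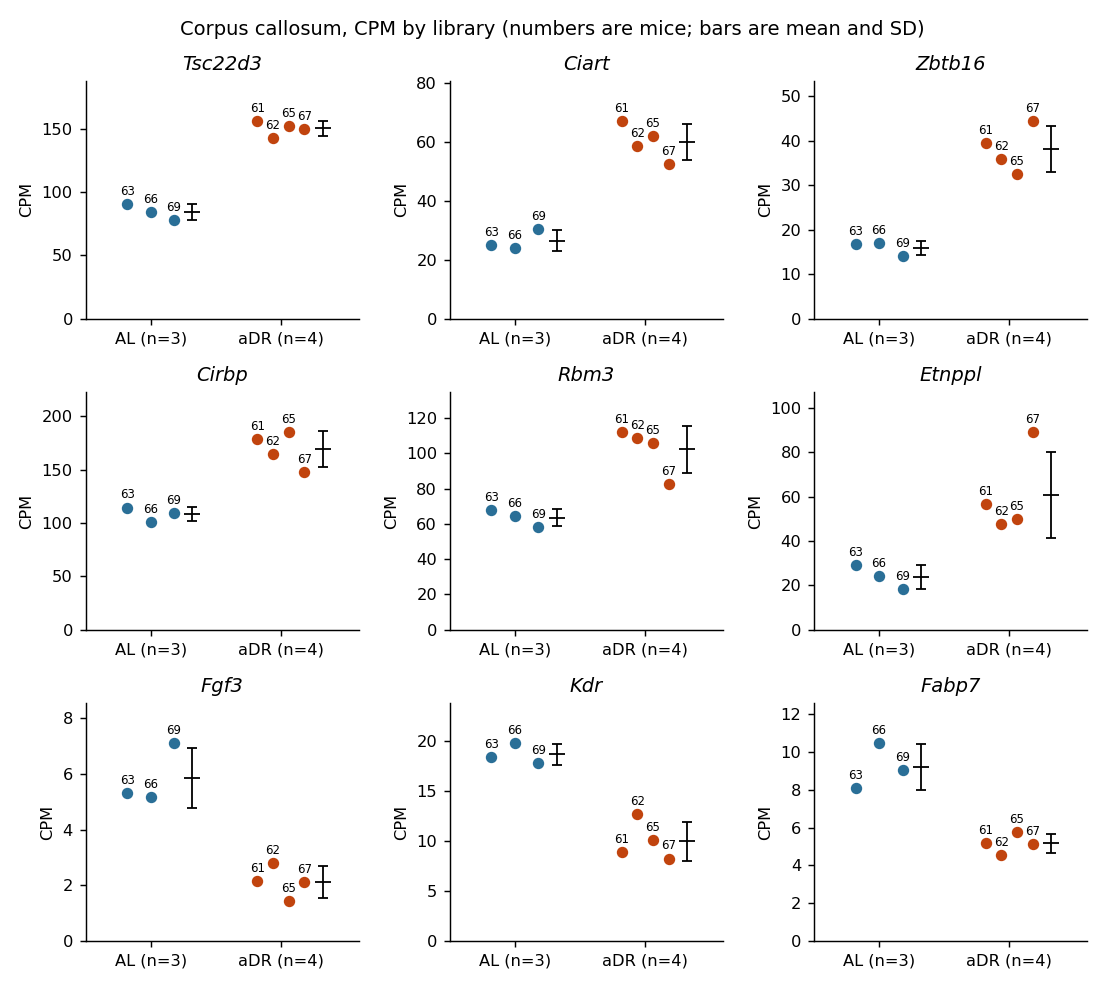
CPM of the 6 higher and 3 lower genes with the smallest p in each library, with the mouse number at each point and the mean and SD of each diet as a bar. In all 9 genes, chosen by p in these same libraries, the AL and aDR libraries do not overlap, which is therefore no further evidence. Only Tsc22d3, Ciart and Zbtb16 passed the adjusted threshold in edgeR.

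Known glucocorticoid targets had positive log2 changes throughout. Of the 22 genes listed, 21 were tested (Lcn2 was under the filter on low counts), and all 21 had a positive log2 change. Of these, 2 passed the adjusted threshold, Tsc22d3 and Zbtb16, and 13 had an unadjusted p under 0.05, all higher, beside 1.33% of all genes. In 10 of the 21 every restricted mouse lay above every freely fed one, beside 2.56% of all genes. The list's median log2 change was 0.43, beside 0.01 over all genes tested. It was 0.36 to 0.49 when scalings were changed or 1 library at a time was left out. The list and its members were chosen with earlier results of these data known. Those results name Plin4, Fmo2, Hif3a, Fkbp5, Zbtb16 and Per1. Neither the direction of the members nor these counts and the median are independent evidence.

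Among the targets without a call, Plin4, a coat protein of lipid droplets, had the widest difference. It stood at 24.6, 24.4, 10.5 and 55.5 CPM in aDR 61, 62, 65 and 67 and at 5.02, 5.99 and 2.79 CPM in AL 63, 66 and 69. The groups did not overlap, but aDR 67 was far above aDR 65, and the log2 change of 2.76 had an SE of 0.59 (edgeR adjusted p = 1). Sgk1, a kinase that regulates ion channels and carriers, stood at 568.3, 352.3, 311.4 and 608.2 CPM in aDR 61, 62, 65 and 67, against 224.0, 241.7 and 230.4 in AL 63, 66 and 69. The freely fed mice were close together and the restricted mice all above them, with a log2 change of 0.99 (SE 0.24). The same order of restricted mice, with aDR 65 lowest and aDR 61 and aDR 67 highest, was seen in Arrdc2 (log2 change 0.81), which encodes an arrestin-like adaptor, and in Sult1a1 (0.98), a sulfotransferase. Fkbp5, the chaperone that damps the glucocorticoid receptor itself, overlapped between the diets: 47.4 CPM in aDR 65 was below 54.7 in AL 69, and its log2 change was 0.60 (SE 0.24). Hif3a, a member of the hypoxia-inducible factor family, was 3.61 to 4.91 CPM in aDR and 1.498 to 2.51 in AL (1.21, SE 0.27), and Fmo2, a monooxygenase, was 3.55 to 15.4 CPM in aDR and 1.95 to 2.85 in AL (1.63, SE 0.50). Klf15, a transcription factor of fasting metabolism, was 54.8 to 67.4 CPM in aDR and 38.9 to 48.3 in AL (0.43, SE 0.11). The metallothioneins Mt1 and Mt2, which bind zinc and copper, had log2 changes of 0.18 (SE 0.20) and 0.20 (SE 0.23), and the phosphatase gene Dusp1 had 0.07 (SE 0.19).

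Of 21 clock genes tested, 1 (Ciart) passed the adjusted threshold, beside 0.0215% of all genes. At an unadjusted p under 0.05, 5 had a positive log2 change, beside 1.33% of all genes, and 1, Arntl, a negative one, beside 1.29%. The list's median was 0.18. This list and its members were also chosen with earlier results of these data known, which name Ciart, Dbp and Per1. Its counts and median are no independent evidence. Arntl, the activator of the loop, stood at 24.6, 26.8, 27.4 and 27.5 CPM in aDR 61, 62, 65 and 67 and at 29.0, 40.1 and 48.6 CPM in AL 63, 66 and 69. All restricted mice were below all freely fed mice, which were themselves spread wide, and the log2 change was -0.58 (SE 0.16; edgeR adjusted p = 1). Bhlhe40, a repressor of the same targets, was 95.01 to 146.8 CPM in aDR and 60.3 to 80.7 in AL (0.63, SE 0.17). Dbp, an output of the clock that drives D-box genes, was 182.4 to 202.0 CPM in aDR and 136.1 to 180.9 in AL (0.31, SE 0.10), and Usp2, a deubiquitinase with a daily rhythm, differed by 0.29 (SE 0.09). The period genes Per1, Per2 and Per3, whose proteins close the loop, had log2 changes of 0.27 (SE 0.15), 0.36 (SE 0.17) and 0.24 (SE 0.16), and for each of them at least 1 restricted mouse lay below AL 69. The nuclear receptors Nr1d1 and Nr1d2, which repress Arntl, had 0.15 (SE 0.08) and 0.10 (SE 0.08). Within the freely fed mice, AL 69 had the most Arntl, Ciart, Per1, Per2 and Cry1. No hour of sampling is given in the labels, so its part in these values was not tested.

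**Figure D3:**
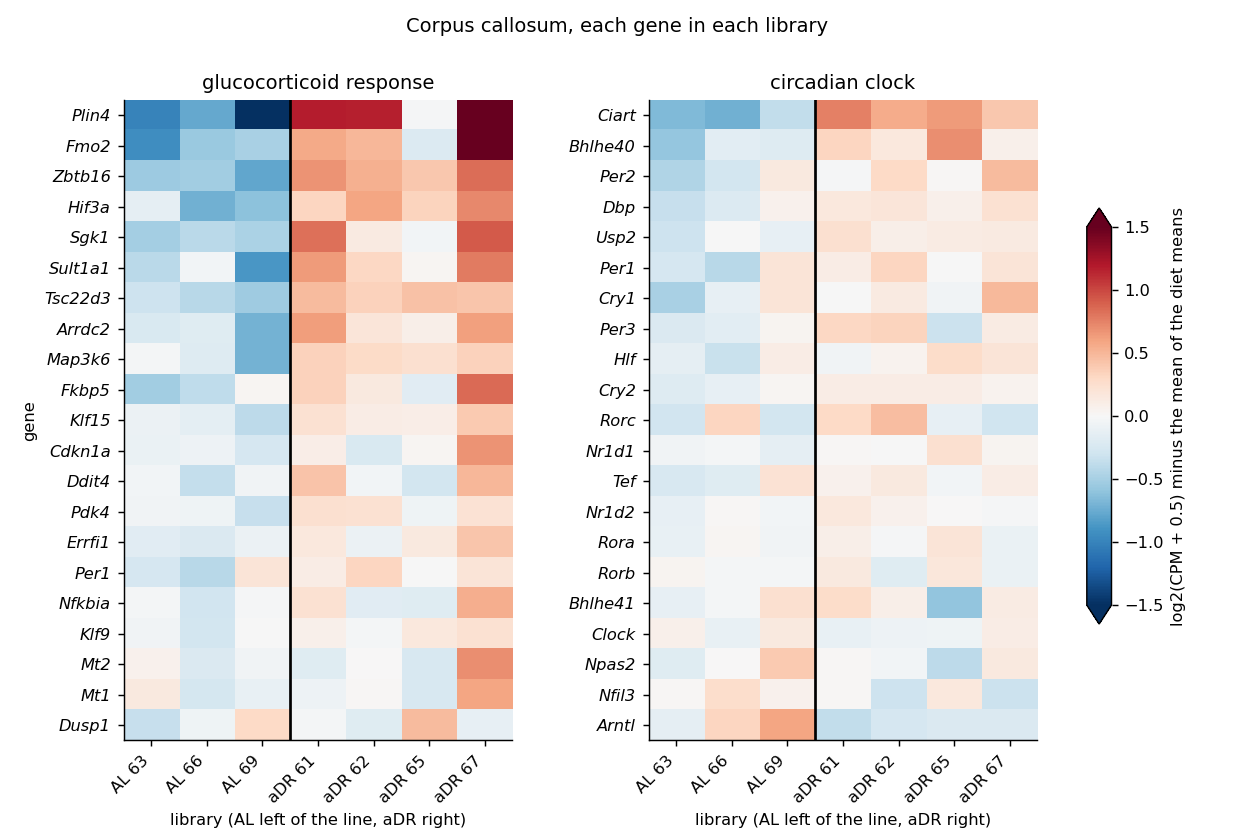
Level of each tested glucocorticoid target (left) and clock gene (right) in each library, as log2(CPM + 0.5) minus the mean of the diet means; colours end at 1.5 in either direction. Most upper glucocorticoid rows are red in aDR 61, 62 and 67 and paler in aDR 65, and Arntl, in the lowest clock row, is blue in all 4 aDR libraries.

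Cirbp and Rbm3 encode a pair of RNA-binding proteins induced by mild cooling. Rbm3 had been named by earlier results of these data. Cirbp stood at 179.0, 164.6, 185.6 and 147.9 CPM in aDR 61, 62, 65 and 67 and at 114.6, 101.2 and 109.9 CPM in AL 63, 66 and 69. Rbm3 stood at 112.2, 108.6, 105.8 and 82.5 CPM in the same restricted mice and at 68.1, 64.2 and 58.2 in the freely fed mice. In neither gene did the diets overlap, and aDR 67 was the lowest restricted mouse in both. The log2 changes were 0.64 (SE 0.10; edgeR adjusted p = 0.490) and 0.69 (SE 0.12; edgeR adjusted p = 0.807). Rbm3os runs against Rbm3, and without strand their reads cannot be told apart. Of 13 heat shock genes tested, which respond to warming and misfolded protein, 0 had an unadjusted p under 0.05 in edgeR's test, with a median of -0.05. Among all genes, 1.33% were higher and 1.29% lower at that level.

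Astrocyte genes did not move as a group. Of 18 tested, 0 passed the adjusted threshold, and the median was 0.12. At an unadjusted p under 0.05, 2 had a positive log2 change, beside 1.33% of all genes, and 1 a negative one, beside 1.29%. Etnppl, an astrocyte enzyme that breaks down phosphoethanolamine, stood at 56.5, 47.6, 49.8 and 89.2 CPM in aDR 61, 62, 65 and 67 and at 29.0, 24.1 and 18.2 CPM in AL 63, 66 and 69. The diets did not overlap, and aDR 67 was well above the other restricted mice, and the log2 change was 1.39 (SE 0.26, adjusted p = 0.914 in edgeR). Gjb6, the gap junction protein connexin 30 of astrocytes, was 52.6 to 71.0 CPM in aDR and 34.1 to 46.3 in AL (0.69, SE 0.15). Fabp7, a fatty acid binding protein of radial glia and young astrocytes, was lower, at 5.19, 4.57, 5.78 and 5.15 CPM in aDR 61, 62, 65 and 67 and 8.09, 10.5 and 9.03 CPM in AL 63, 66 and 69. Its restricted mice were tightly grouped below the freely fed ones, and the log2 change was -0.83 (SE 0.16, adjusted p = 1 in edgeR). The astrocyte list was chosen with earlier results of these data known, and those results name Fabp7.

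Kdr, the main VEGF receptor of endothelial cells, was among the lower genes with the smallest p. Earlier results of these data had already named it. It stood at 8.91, 12.7, 10.1 and 8.24 CPM in aDR 61, 62, 65 and 67 and at 18.4, 19.8 and 17.8 CPM in AL 63, 66 and 69. Every restricted mouse was below every freely fed mouse, and the log2 change was -0.91 (SE 0.16, adjusted p = 0.807 in edgeR). Tek, the angiopoietin receptor, was 6.09 to 11.2 CPM in aDR and 12.04 to 15.3 in AL (-0.63, SE 0.21). The endothelial list as a whole held 19 tested genes, with a median of -0.12. At an unadjusted p under 0.05, 2 of them had a negative log2 change, beside 1.29% of all genes, and 1, the transferrin receptor Tfrc, a positive one, beside 1.33%. The list's levels were lowest in aDR 65, the library with the lowest sum of striatal markers too, with a list median of -0.50 relative to the mean of the diets on the log2 scale. Of 10 pericyte and smooth muscle genes, 1, Vtn, was lower at that level (-0.38, SE 0.14), and the list's median was -0.16. Whether fewer capillaries were sampled was not tested.

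Other genes were named by their small p, without a call. Fgf3, a fibroblast growth factor, was 1.42 to 2.79 CPM in aDR and 5.16 to 7.12 in AL, with a log2 change of -1.5 (SE 0.26) and an adjusted p of 0.807 in edgeR. Erbb3, a neuregulin receptor made by oligodendrocytes, was 11.1 to 15.9 CPM in aDR and 17.0 to 24.3 in AL (-0.65, SE 0.17). Lef1, a transcription factor of Wnt signalling, was 5.78 to 9.47 CPM in aDR and 11.8 to 14.0 in AL (-0.71, SE 0.19). Unc5b, a netrin receptor of endothelium and axons, differed by -0.45 (SE 0.12). Chst3, a chondroitin sulfotransferase, had a log2 change of -1.76 (SE 0.43) at under 2 CPM in every library. Among the higher genes, Pnpla2, the lipase that starts the breakdown of stored fat, was 36.5 to 50.7 CPM in aDR and 25.9 to 31.0 in AL (0.61, SE 0.13), and Tspan4, a tetraspanin, differed by 0.65 (SE 0.13). Mafk, a small Maf transcription factor, differed by 0.63 (SE 0.13), and Net1 by 0.63 (SE 0.13). Lman2l, a lectin of the secretory pathway, had a log2 change of -0.39 (SE 0.09), Moxd1 of -0.63 (SE 0.16) and Smtnl2 of -0.69 (SE 0.18). In the genes of this paragraph the diets did not overlap, beside 2.56% of all genes without overlap among higher and 2% among lower ones. These genes were chosen by their p in the same libraries, so the lack of overlap is no further evidence.

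Myelin genes showed no common shift. At an unadjusted p under 0.05 in edgeR's quasi-likelihood test, 2 of 20 myelin protein genes tested were lower, beside 1.29% of all genes. Of the 20, 0 passed the adjusted threshold, and the list median was -0.01. Mbp, the most abundant of them, was 13120, 13410, 11670 and 16610 CPM in aDR 61, 62, 65 and 67 and 16850, 13610 and 10140 CPM in AL 63, 66 and 69. The diets overlapped over nearly the whole range, and the log2 change was 0.02 (SE 0.21). Opalin, a membrane protein of the myelin loops and 1 of the lower genes, was at 71.9 to 82.8 CPM in aDR and 81.1 to 126.6 in AL (-0.38, SE 0.14). It overlapped between the diets and was highest in AL 63, the shallowest library.

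Of 14 myelin lipid enzymes, 1 was lower at an unadjusted p under 0.05: Ugt8a, which makes galactosylceramide, at -0.42 (SE 0.16). That list's median was 0.00. Of 18 genes of oligodendrocyte precursors and differentiation, 1, the proteoglycan Cspg4, was lower (-0.35, SE 0.14), 12 had a negative log2 change and the median was -0.12. Of 24 cholesterol synthesis genes, 1, the lanosterol synthase Lss, was higher (0.23, SE 0.10), with a median of 0.01. At that unadjusted level, 1.29% of all genes were lower and 1.33% higher. DESeq2 called none of the genes on these 4 lists.

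The immune lists had their highest medians in 1 mouse. In aDR 67, the tested interferon response genes had a median 0.86 above the mean of the diets on the log2 scale, against 0.39 in aDR 61, -0.10 in aDR 62 and -0.46 in aDR 65. The freely fed mice were at -0.34, 0.09 and -0.13. Of 23 interferon genes tested, 20 had a positive log2 change. Only 1, the chaperone gene Rtp4, had an unadjusted p under 0.05 in edgeR's test (0.89, SE 0.37), beside 1.33% of all genes. The list's median of 0.35 fell to 0.01 without aDR 67. The same mouse stood highest for complement and MHC genes (0.80), for activated and white matter microglia genes (0.59) and for homeostatic microglia genes (0.49). C4b, a complement component, was 645.1 CPM in aDR 67 and 116.9 to 239.5 in the other 6 libraries. Spp1, the secreted protein osteopontin, was 82.3 CPM there and 13.8 to 28.2 elsewhere. On the 4 lists, only Rtp4 had an unadjusted p under 0.05, and 0 genes passed the adjusted threshold in edgeR or in DESeq2.

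Nutrient sensing, metabolic and protein quality lists held few genes past even the unadjusted threshold. At that threshold 1.33% of all genes were higher and 1.29% lower. Of 26 tested genes of insulin, FoxO and mTOR signalling, which senses nutrients, 0 had an unadjusted p under 0.05 in edgeR's test and the median log2 change was 0.01. Of 20 genes of fasting and fatty acid oxidation, 1, the pyruvate dehydrogenase kinase Pdk4, was higher (0.34, SE 0.14). Of 17 autophagy and lysosome genes, 1, Atg5, which is needed to form autophagosomes, was higher (0.22, SE 0.08). Of 10 serine and one-carbon enzymes, 1, the mitochondrial folate enzyme Mthfd1l, was higher. It stood at 12.7 to 15.7 CPM in aDR and 7.32 to 10.7 in AL (0.73, SE 0.17, edgeR adjusted p = 1). Its adjusted p was 0.0135 in a fit of all 131 brain libraries, which came from only 5 restricted and 4 freely fed mice. The comparison there was still between the corpus callosum libraries alone, and the other libraries entered through the scaling and the estimate of spread. That estimate treats the libraries of 1 mouse as separate. The smaller p-value therefore does not make Mthfd1l a called gene here. Of 18 genes of the unfolded protein response, 2 were higher at that level, Herpud1 (0.26, SE 0.08) and Dnajb9 (0.19, SE 0.07), both of which help to clear misfolded protein of the endoplasmic reticulum, while the list's median was -0.08.

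At an unadjusted p under 0.05 in edgeR's test, 1.33% of all genes were higher and 1.29% lower. The antioxidant and Nrf2 target list (17 genes) and the p53 and senescence list (9 genes) held 0 genes at that level. Of 80 cytosolic ribosome genes 0 reached it, with a median of -0.02 and a range of -0.18 to 0.14. Of 91 nuclear genes of the respiratory chain 1 did, Cox4i2, a subunit of the terminal oxidase (-0.81, SE 0.22), and of 13 mitochondrial ones 1, mt-Nd2 (-0.24, SE 0.10). Of 10 immediate early genes, 1, the neuronal activity factor Npas4, was lower (-0.77, SE 0.28), with AL 69, the library richest in striatal markers, at 20.4 CPM and the others at 6.88 to 11.3. The plot of list members sets these lists beside the glucocorticoid and clock genes.

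**Figure D4:**
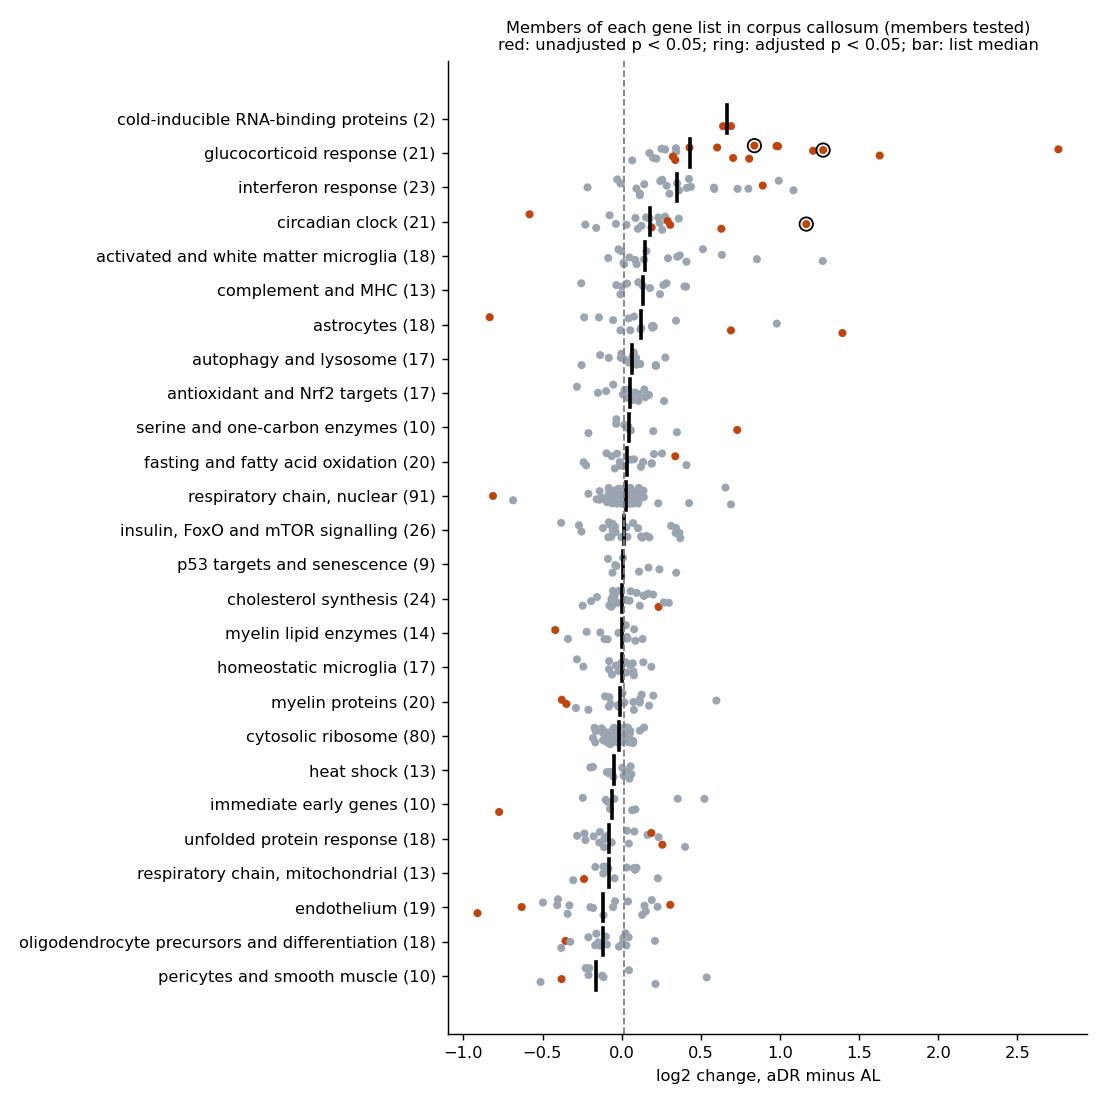
Log2 change (aDR minus AL) of every tested member of each list, ordered by the list median (black bar), with red points at an unadjusted p under 0.05, rings at an adjusted p under 0.05 and the median of all genes as a dashed line. Apart from the 2 cold-inducible genes, the glucocorticoid list has the highest median (0.43), and most other lists lie within 0.2 of 0.

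The called genes were set beside the other tissues of the same experiment. Their libraries come largely from the same mice and so are not independent of those here. Most of these tissues had 5 restricted and 4 freely fed mice, some of them without a corpus callosum library. The liver labels call the restricted group DR. Tsc22d3 had a positive log2 change in 15 of 15 brain regions, from 0.18 in pons to 0.84 in corpus callosum and caudate putamen, and 0.54 in liver. Ciart was positive in 15 of 15, from 0.31 in medulla to 1.23 in caudate putamen, with 1.17 in corpus callosum and 1.97 in liver. Zbtb16 was positive in 14 of 15, from -0.04 in the anterior hippocampus to 1.27 in corpus callosum, with 1.66 in liver. The caudate putamen was the nearest of the other regions to corpus callosum for all 3 genes, and its RNA is present in every corpus callosum library. A fit with the striatal neuron level as a covariate, chosen after seeing the data, is given in the last section. It adjusts for the level of striatal RNA and not for a diet difference within that RNA, whose part was not tested.

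Whether the diet difference was larger in corpus callosum was tested against 3 regions by an interaction term. Against motor cortex, which lies over the tract, 0 of 14191 genes (0%) passed the adjusted threshold in edgeR, 317 had an unadjusted p under 0.05, and DESeq2 called 1, Zbtb16. Zbtb16 averaged 90.5 CPM in restricted and 75.1 CPM in freely fed mice in motor cortex (log2 change 0.26), and its difference between the regions was 1.02 (SE 0.18; unadjusted p = 2.56e-05, edgeR adjusted p = 0.364, DESeq2 adjusted p = 0.00402). Tsc22d3 differed from motor cortex by 0.40 (SE 0.09) and Ciart by 0.33 (SE 0.15). Against SVZ (named as in the labels), 0 of 14479 genes (0%) were called, with 181 at an unadjusted p under 0.05 and 0 by DESeq2, and Tsc22d3 differed by 0.04 (SE 0.17). Against medulla, 0 of 14588 genes (0%) were called, with 256 at an unadjusted p under 0.05 and 0 by DESeq2. Ciart differed most there, by 0.83 (SE 0.16; edgeR adjusted p = 0.901), and Tsc22d3 by 0.51 (SE 0.12). In edgeR none of the 3 genes was shown to respond more in corpus callosum than in these regions.

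**Figure D5:**
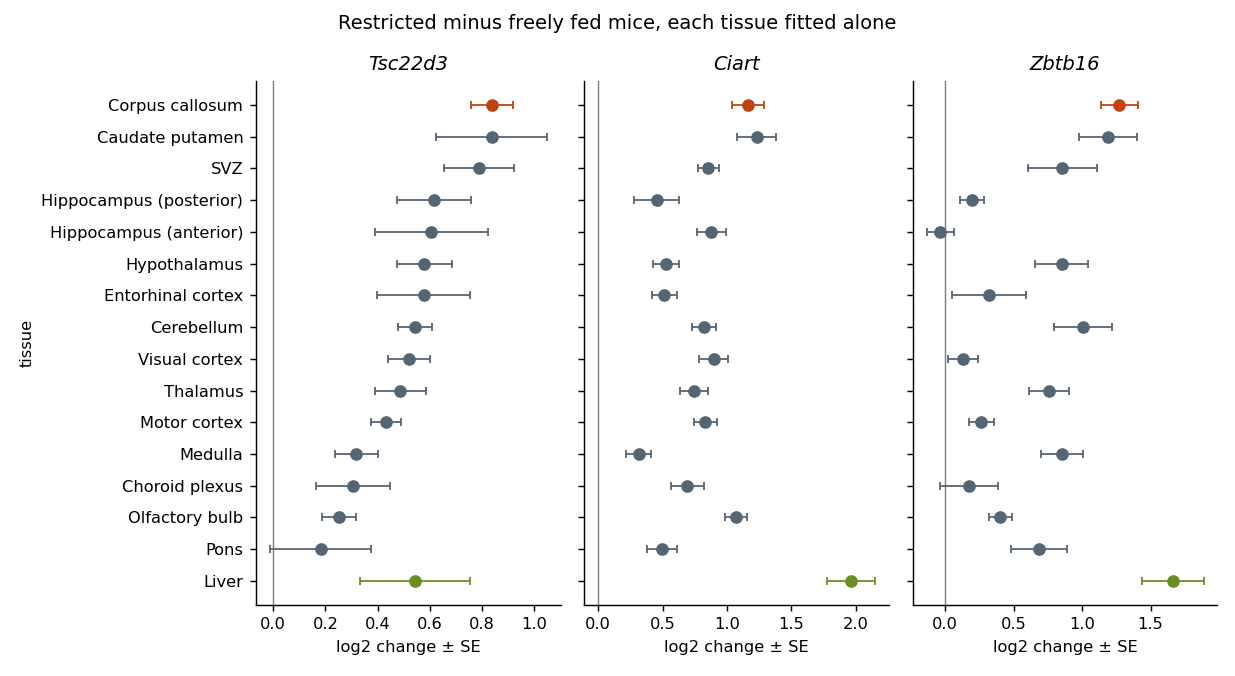
Log2 change (restricted minus freely fed) with its SE for the 3 called genes in each brain region and liver, each tissue fitted alone; corpus callosum is orange and liver green. Corpus callosum and caudate putamen lie at the right in all 3 panels among brain regions, and Zbtb16 ranges from -0.04 to 1.27.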

How the data were processed

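RNA was measured by unstranded bulk mRNA sequencing of 7 corpus callosum samples (Smart-Seq2 cDNA and Nextera XT libraries, per the labels' protocols). The values are whole-number read counts per gene, deposited by the authors in a table of 21076 gene rows and 238 libraries. The submitters' processing notes name Trim Galore 0.3.7, STAR 2.5.3a, DESeq2 and GRCm38; the counting program and annotation are not given in the sources used here. Groups and mouse numbers came from the labels. All 238 columns were mapped to samples.

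Counts were tested with edgeR 4.0.16 (quasi-likelihood, TMM scaling, filterByExpr at 10 counts and a total of 15, Benjamini-Hochberg adjustment, called at an adjusted p under 0.05) in R 4.3.3, on the 7 libraries alone. The filter left out 7142 genes. Gene CPM uses TMM-scaled totals, and marker sums, Ttr among them, plain totals. The script was tested on simulated data. DESeq2 1.42.0 and limma 3.58.1 (voom with quality weights) were alternatives, with other scalings and filters, covariates and libraries left out. Library totals were 3.60 to 18.06 M (mega) counts, and pairs of libraries differed by more than sampling noise (chi-square per degree of freedom 4.14 to 47.63). Reads carried no molecular identifiers, so counting precision covers counting error only. Differences between regions were tested by an interaction term without a block. A mouse number in the labels stands for 1 animal across its regions, never across diets; the mean correlation of deviations within a mouse was 0.055 with motor cortex, 0.28 with SVZ and 0.027 with medulla. Positions and promoters came from RefSeq (GRCm38.p6) by symbol; 13701 of 13934 tested genes had a gene entry, and 2 of the 3 called genes (Tsc22d3 and Ciart) a promoter entry.

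Named genes were taken from those called, the 12 with the smallest p in each direction, up to 6 members of each list at an unadjusted p under 0.05 with the most abundant member, genes named by earlier results, and the choroid plexus markers; a few more list members (Per2, Per3, Nr1d1, Nr1d2, Klf15, Spp1, Mt2, Dusp1 and Sult1a1) were chosen after their values were seen. The genes and lists were chosen with earlier results of these data known. Not every gene that meets the rule is described, and 1 of them is not reported here.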

Additional observations from a re-analysis of the deposited data

Results flagged for a closer look

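In groups of 4 restricted mice, a value was singled out when its gap to the nearest other was large for the range of the group; chance gives this in about 1 in 20 groups, and 3 of 70 groups showed it, where 3.5 would come by chance. C4b stood at 645.1 CPM in aDR 67, and at 116.9 to 200.9 in the other restricted mice. The activated and white matter microglia genes had a median 0.591 above the mean of the diets (log2) in aDR 67, against -0.197 to -0.072 in the other restricted mice. Tnrc6b, an adaptor of microRNA silencing, stood at 41.61 CPM in aDR 65 and at 46.56 to 47.18 in the others.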

How the results depend on the processing

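The count of 3 called genes stayed at 3 with no filter on low counts, with robust dispersion and with limma-voom. It was 1 with plain library totals (Tsc22d3), 10 with DESeq2 and 7 with all brain libraries in 1 fit. It was 0 with RLE scaling, with a minimum count of 30, with the choroid plexus level or the neuron level as a covariate, and with the carry-over markers left out; it was also 0 in 3 alternatives chosen after seeing the data, the striatal neuron level as a covariate and both pairs of libraries left out by Ttr. Leaving out each library in turn gave 0 to 0 calls. Other scalings moved the median of all genes by less than 0.1. In the fit of all 131 brain libraries, each mouse gave several libraries. The p-values and the 7 calls of that fit therefore rest on fewer animals than libraries.

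In all 21 settings the 3 genes were higher in aDR. Tsc22d3 was past the threshold in 6 of them and lost the call at a log2 change of 0.83 (RLE), 0.83 (minimum count of 30), 0.83 (plexus covariate), 0.81 (neuron covariate), 0.82 (markers left out), 0.80 (striatal covariate), and 0.79 and 0.90 without the libraries with the most and the least Ttr. Ciart, past it in 5, lost it at 1.16, 1.16, 1.13, 1.14, 1.15, 1.16, 1.01 and 1.18 in that order, and at 1.15 with plain totals. Zbtb16, past it in 5, lost it at 1.26, 1.27, 1.27, 1.29, 1.26, 1.29, 1.29 and 1.22, and at 1.26 with plain totals. Without 1 library at a time they lost it at 0.76 to 0.89 (Tsc22d3), 1.07 to 1.28 (Ciart) and 1.16 to 1.34 (Zbtb16); fewer mice leave fewer degrees of freedom, and for the other settings the cause was not tested. DESeq2 also called Cirbp (0.63), Rbm3 (0.68), Etnppl (1.37), Plin4 (2.67), Sgk1 (0.98), Kdr (-0.92) and Fgf3 (-1.52), and the fit of all brain libraries called Rbm3 (0.68), Plin4 (2.74), Mthfd1l (0.71) and Rbm3os (0.89).

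C4b turned to -0.0861 with voom, -0.35 without aDR 67 (up to 0.67 without other libraries) and -0.30 without the libraries with the least Ttr. Medians of lists moved beyond the spread of mice for heat shock (-0.13 without AL 69), autophagy (-0.05 without AL 69), immediate early genes (0.21 without AL 69) and insulin signalling (-0.05 to -0.03 without aDR 61, AL 63 or AL 69). The Tsc22d3 difference from SVZ turned to -0.0304 with the mouse number as a replicate block, -0.0339 with only mice that had both regions and -0.0123 without AL 69 (up to 0.0987 without other libraries). DESeq2 called 1 gene against motor cortex, Zbtb16 (1.01), where edgeR called 0 without and 0 with the replicate block; the block changed no call. Depth limits low genes most in AL 63, with 3.60 M counts.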
